A study of Mus musculus with 6 samples.

Results

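The genes described here are the 44 mouse autophagy genes and cargo receptors that carry at least 1 probe of their own on an Agilent expression array, taken as the non-control probes whose printed gene name equals a symbol on a list of 44. They hold 66 of the 39429 non-control probes, and 42 of them are among the 19058 genes that could be tested. Expression was measured in whole sciatic nerve of mice aged 1 month, in 3 pools from OGT_SCKO mice and 3 pools from littermate controls (Ctrl), with 1 array per pool. All mice were on a background the labels spell C56 BL6, the pools are described as independent, and the title concerns O-GlcNAcylation in Schwann cells, the myelinating glia of nerve. OGT is the enzyme that attaches the sugar O-GlcNAc to nuclear and cytoplasmic proteins. The promoter that drives the recombinase, the deleted part of Ogt and the number of animals in a pool are not given in the sources used here, so p-values measure the spread between pools.

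Autophagy carries cytoplasm to the lysosome in a double-membraned vesicle. The ULK1 kinase complex starts it, a class III phosphoinositide 3-kinase complex marks the membrane, ATG2 and ATG9 proteins supply lipid, and a linked pair of conjugation systems attaches proteins of the Atg8 family (LC3 and GABARAP) to the growing membrane. Cargo receptors hold their cargo with one end and Atg8 proteins with the other, and the kinase PINK1 and the membrane receptors BNIP3 and BNIP3L direct mitochondria to this route. In injured nerve Schwann cells are known to use autophagy to digest their own myelin.

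Ogt was measured first as a check of the labels. Its log2 signal, relative to the 75th percentile of all probes on the same array, was -0.89, -1.01 and -1.01 in OGT_SCKO nerves, against 0.46, 0.35 and 0.11 in Ctrl nerves. All OGT_SCKO values lay under all Ctrl values. The 75th percentile of the processed signal ranged from 2749 to 6136 over the arrays, and 58.9% to 65.2% of probes were well above background. Correlations between arrays of a group were 0.979 to 0.995, against 0.949 to 0.976 between groups. The 3 OGT_SCKO arrays and Ctrl 2 were on 1 slide, and Ctrl 1 and Ctrl 3 on another, so a fit with slide as a block compares the OGT_SCKO arrays with Ctrl 2 alone.

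Most autophagy genes did not pass the test in OGT_SCKO nerves, and the genes that did were mainly lower. With limma's moderated test and a Benjamini-Hochberg adjusted p under 0.05 over all genes, 7 of the 42 tested members passed (16.7%), against 23.3% of all 19058 genes tested. Atg2b was the 1 member that rose (2.4%, against 11.2% of all genes), and Calcoco2, Calcoco1, Bnip3, Pink1, Atg4c and Map1lc3a fell (14.3%, against 12.1%). The share of members called was thus below the background for all calls together and near it for lower calls. The median log2 fold change, OGT_SCKO minus Ctrl, was -0.02 over the members and -0.07 over all genes tested. In whole nerve, fewer cells of a type and less RNA per cell cannot be told apart.

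The members also varied little between pools. Their median residual SD was 0.139 on the log2 scale, against 0.194 over all genes tested. The 2 sets are not matched for signal. All kept member probes were well above background on all 6 arrays, a rule that 17806 of the 19058 genes met. Log2 fold changes were above 0 for 20 members and below 0 for 22, and 37 of the 42 lay within 1.5-fold either way. For the 35 members that did not pass, the 95% interval of the fold change lay within 1.5-fold for 27 and within 2-fold for 34. The exception was Optn, with an interval of -0.31 to 1.18 on the log2 scale. Values of the pools did not overlap for 16 members. OGT_SCKO pools were all higher for 6 of them (14.3%, against 20.4% of all genes) and all lower for 10 (23.8%, against 25.4%). An exact two-sided permutation test of 3 pools against 3 cannot go below 0.1, and each of those 16 members was at 0.1.

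**Figure D1:**
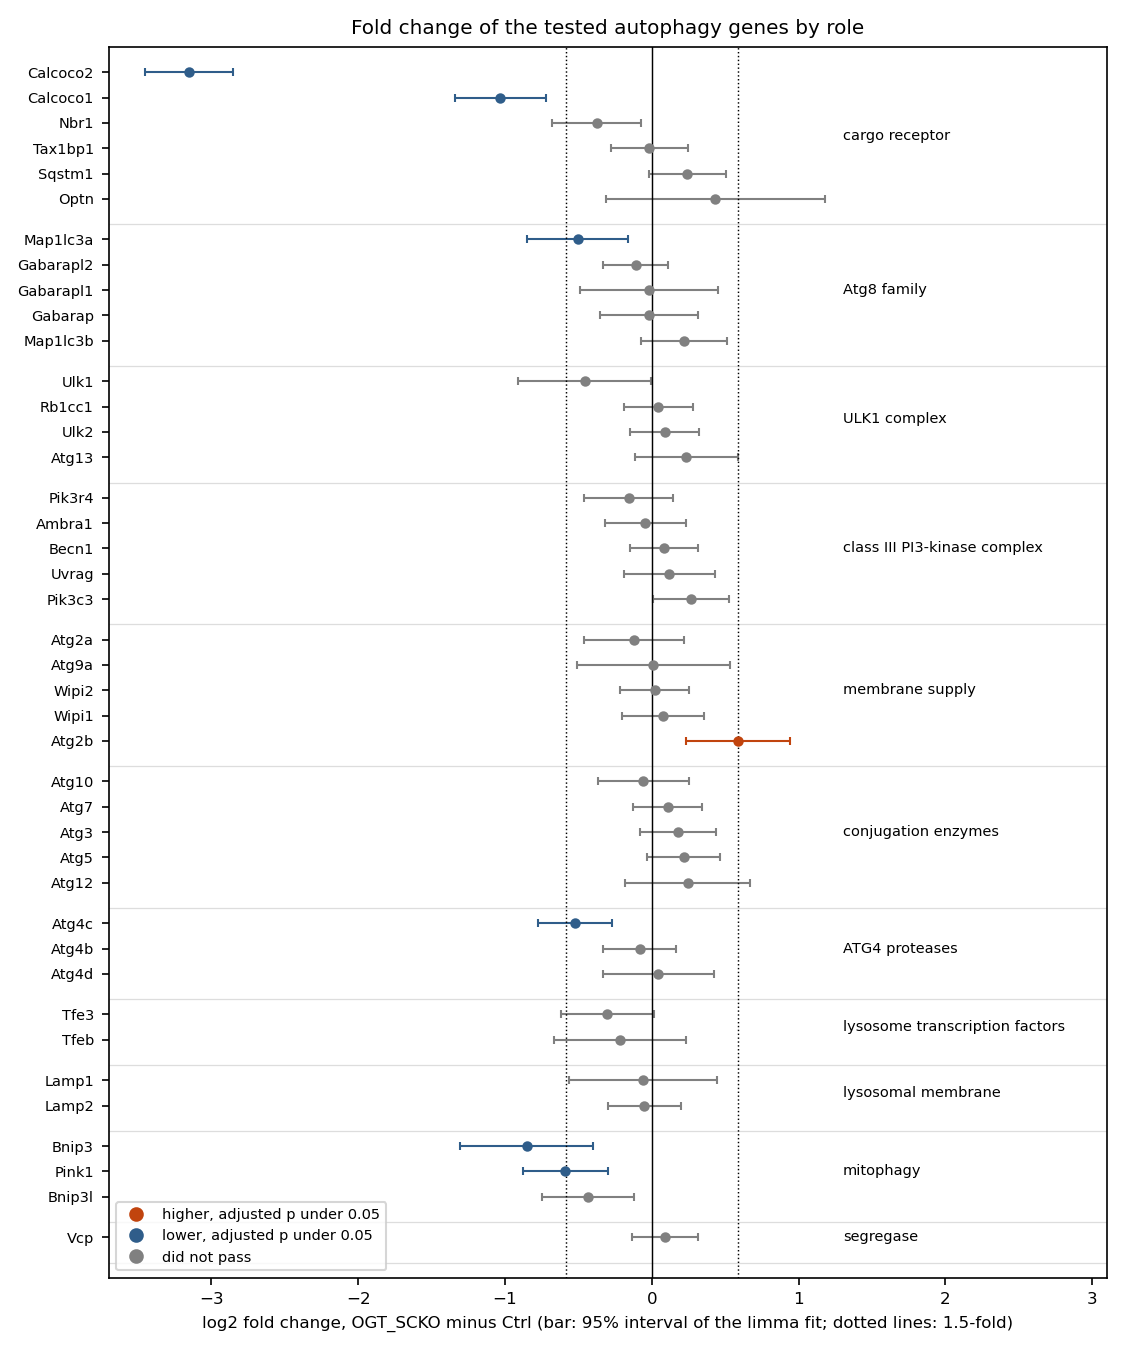
Log2 fold change, OGT_SCKO minus Ctrl, of 41 of the 42 tested members, grouped by role, with the 95% interval of the limma fit and dotted lines at 1.5-fold. Calcoco2 stands far to the left at -3.15, Calcoco1 follows at -1.03, and grey points, which did not pass, gather around 0.

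The cargo receptors held the member with the largest change. Calcoco2, known in human cells as NDP52, a receptor that brings invading bacteria and damaged mitochondria to autophagosomes, was at -3.49, -3.54 and -3.33 in OGT_SCKO nerves, against -0.48, -0.25 and -0.18 in Ctrl nerves. The groups lay far apart, and the spread within each was small (SD 0.11 and 0.16, n = 3 each). Calcoco2 fell 8.89-fold, to 11.2% of Ctrl (-3.15 on the log2 scale with an SE of 0.13, limma adjusted p = 0.000117). Counted from the lowest, this fold change was number 30 of the 19058 genes tested. It also passed with slide as a block (log2 fold change -3.20, limma adjusted p = 0.00358), in a fit on the arrays of the shared slide alone (limma adjusted p = 0.0176) and after normexp correction of the background, where the fold was 6.0 (limma adjusted p = 0.00148).

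Calcoco2 was read by a pair of probes on the minus strand of mouse chromosome 11, at chr11:95961627-95961686 and chr11:95961235-95961294 in build mm9. Their sequences, from the deposited files, are given 5′ to 3′ because the largest change in the family rests on them. Capitals mark the longest run that both probes hold, of 10 bases.
Calcoco2 probe with the higher mean: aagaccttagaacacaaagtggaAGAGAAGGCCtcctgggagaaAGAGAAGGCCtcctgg
Calcoco2 second probe: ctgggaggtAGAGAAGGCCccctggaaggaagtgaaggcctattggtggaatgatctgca
The run stands 2 times in the first probe, inside a 17-base repeat, and 1 time in the second. Each probe has at least 1 reading frame with no stop codon on its strand. Whether the probes lie in coding exons is not annotated in the files. The second probe was at -3.81, -3.98 and -3.63 in OGT_SCKO nerves, against -1.15, -1.06 and -0.96 in Ctrl nerves, and fell by 2.75 on the log2 scale (limma adjusted p over all kept probes of 0.000144). Both probes separated the groups by a gap many times the spread between pools. Whether either probe also binds other transcripts that hold the repeat was not tested.

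Calcoco1, a relative of Calcoco2 and in human cells a receptor for the endoplasmic reticulum and the Golgi, has a probe at chr15:102537479-102537538 in mm9, on the minus strand. Its log2 signal was -3.36, -3.60 and -3.58 in OGT_SCKO nerves, against -2.31, -2.62 and -2.52 in Ctrl nerves. The pools did not overlap, and the fall was 2.04-fold (-1.03 on the log2 scale with an SE of 0.13, limma adjusted p = 0.00299). It passed without any 1 of the 6 arrays, but not with slide as a block (limma adjusted p = 0.0509), on the shared slide alone (0.131) or with normexp (1.58-fold, 0.124).

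The other 4 cargo receptors did not pass. Nbr1, a ubiquitin-binding receptor of protein aggregates and peroxisomes, was at -0.36, -0.05 and -0.06 in OGT_SCKO nerves, against 0.30, 0.22 and 0.13 in Ctrl nerves, with no overlap (-0.38 on the log2 scale with an SE of 0.13, limma adjusted p = 0.0752). Sqstm1, or p62, the receptor most used as a measure of autophagic turnover, was at 3.18, 3.24 and 3.41 in OGT_SCKO nerves, against 3.00, 3.00 and 3.1 in Ctrl nerves (log2 fold change 0.24, limma adjusted p = 0.153). Its OGT_SCKO pools all lay above its Ctrl pools, by a gap smaller than the spread among them. Tax1bp1, another ubiquitin-binding receptor, had a log2 fold change of -0.02 with a 95% interval of -0.28 to 0.24, and turned positive with quantile normalization. Optn, a receptor for bacteria and mitochondria, was at -3.38, -2.37 and -2.56 in OGT_SCKO nerves, against -2.94, -3.67 and -3.00 in Ctrl nerves, so that 1 OGT_SCKO pool lay inside the Ctrl range.

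**Figure D2:**
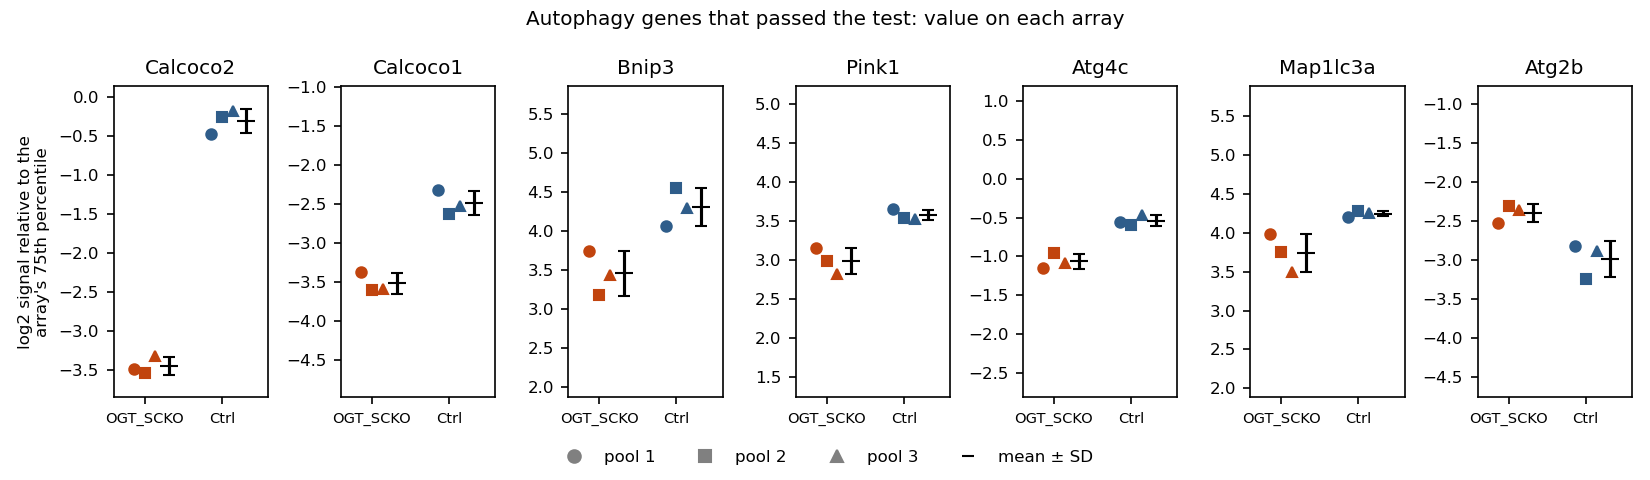
Log2 signal relative to the array's 75th percentile in each pool, OGT_SCKO left and Ctrl right, for the 7 members that passed the test, with mean ± SD (n = 3) in black beside the points. Every panel spans the same height. The groups do not overlap in any panel, and the gap for Calcoco2 is the widest.

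Of the 5 Atg8 family members, which coat the autophagosome and hold the receptors, Map1lc3a passed and 4 did not. Map1lc3a, an LC3 form, has its probe at chr2:155103435-155103494 in mm9 on the plus strand. It was at 3.98, 3.75 and 3.49 in OGT_SCKO nerves, against 4.21, 4.27 and 4.25 in Ctrl nerves. The Ctrl pools lay close together (SD 0.03) and the OGT_SCKO pools spread below them (SD 0.25). Map1lc3a fell 1.42-fold (-0.50 on the log2 scale with an SE of 0.14, limma adjusted p = 0.0477). Without OGT_SCKO 1 it passed at 0.0202, and without any other array it did not, with limma adjusted p of 0.0721 without OGT_SCKO 2, 0.140 without OGT_SCKO 3, 0.115 without Ctrl 1, 0.131 without Ctrl 2 and 0.137 without Ctrl 3. With slide as a block it missed the threshold too (limma adjusted p = 0.198).

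Map1lc3b, the LC3 form most often followed as an autophagosome marker, was at 3.49, 3.80 and 3.76 in OGT_SCKO nerves, against 3.55, 3.40 and 3.45 in Ctrl nerves (log2 fold change 0.22, limma adjusted p = 0.231). Its groups overlapped, through OGT_SCKO 1. Gabarap, Gabarapl1 and Gabarapl2 had log2 fold changes of -0.02, -0.02 and -0.11, and the sign of each turned under at least 1 other normalization. The difference between Map1lc3a and the rest of the family was not tested.

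Neither complex that starts the autophagosome held a member that passed. Among 4 members of the ULK1 complex, Ulk1, the initiating kinase, was at 2.00, 1.69 and 1.89 in OGT_SCKO nerves, against 2.17, 2.70 and 2.07 in Ctrl nerves. The pools did not overlap, and Ctrl 2 stood above the other Ctrl pools (-0.46 on the log2 scale with an SE of 0.19, limma adjusted p = 0.126). It was the largest change among members that did not pass, at -0.84 with slide as a block (limma adjusted p = 0.0567). Ulk2, its close relative, and the scaffolds Rb1cc1 (FIP200) and Atg13 had log2 fold changes of 0.09, 0.04 and 0.24.

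In the class III phosphoinositide 3-kinase complex, the 5 members ranged between -0.16 (Pik3r4, the regulatory subunit VPS15) and 0.27 (Pik3c3, the lipid kinase VPS34). Pik3c3 was at 0.28, 0.39 and 0.46 in OGT_SCKO nerves, against 0.0045, 0.18 and 0.13 in Ctrl nerves, with no overlap (limma adjusted p = 0.117). Becn1, or beclin, its core partner, was at 0.08 with a 95% interval of -0.15 to 0.31, and Uvrag and Ambra1, which bind beclin, were at 0.12 and -0.05.

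Among 5 genes of membrane supply, Atg2b rose. It encodes a lipid transfer protein of the growing membrane and has its probe at chr12:106851843-106851902 in mm9 on the minus strand. Its log2 signal was -2.53, -2.30 and -2.36 in OGT_SCKO nerves, against -2.81, -3.25 and -2.89 in Ctrl nerves. The groups did not overlap, and Ctrl 2 was the lowest pool. Atg2b was 1.5-fold higher in OGT_SCKO nerves (0.59 on the log2 scale with an SE of 0.15, limma adjusted p = 0.0328), and 0.85 on the log2 scale with slide as a block (0.0453). On the shared slide alone the limma adjusted p was 0.138. It passed without OGT_SCKO 1 (0.0342) and not without any other array, with limma adjusted p of 0.0609 without OGT_SCKO 2, 0.112 without OGT_SCKO 3, 0.0550 without Ctrl 1, 0.0833 without Ctrl 2 and 0.0820 without Ctrl 3. Its paralogue Atg2a was at -0.12 (95% interval -0.46 to 0.22), and Atg9a, a lipid scramblase, and Wipi1 and Wipi2, which read the phosphoinositide mark, were at 0.01, 0.08 and 0.02. Atg9b was well above background on none of the arrays and was not tested.

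The 5 conjugation enzymes stood close to Ctrl, and none passed. Atg7, the E1-like enzyme of both conjugation systems, had a log2 fold change of 0.11, and Atg3 and Atg10, the E2-like enzymes, 0.18 and -0.06. Atg5 and Atg12, which are joined to form the E3-like part, were at 0.22 and 0.24, the largest change of the 5 genes. Atg12 was at 0.12, 0.60 and 0.29 in OGT_SCKO nerves, against 0.31, -0.17 and 0.14 in Ctrl nerves, which overlapped (limma adjusted p = 0.343). OGT_SCKO pools of Atg3 and Atg5 all lay above their Ctrl pools, by less than the test required (limma adjusted p = 0.256 and 0.170).

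The ATG4 proteases cut new Atg8 proteins and free them from membranes. Of the 3 tested, Atg4c passed and Atg4b and Atg4d did not, at -0.08 and 0.04, while Atg4a was well above background on none of the arrays. Atg4c, with its brighter probe at chr4:98926364-98926423 in mm9 on the plus strand, was at -1.14, -0.96 and -1.09 in OGT_SCKO nerves, against -0.56, -0.60 and -0.46 in Ctrl nerves. The groups lay apart by more than their spread, and the fall was 1.44-fold (-0.52 on the log2 scale with an SE of 0.11, limma adjusted p = 0.0156). With slide as a block it missed the threshold (limma adjusted p = 0.151), nor without OGT_SCKO 3 (0.0726), Ctrl 1 (0.0576) or Ctrl 3 (0.0733). A second probe that overlaps the first was at -0.30 and did not pass.

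Among the mitophagy genes Bnip3 and Pink1 fell. BNIP3 is an outer mitochondrial membrane receptor, known as a target of hypoxia signalling, that binds Atg8 proteins directly. Its brightest probe, at chr7:146082760-146082819 in mm9 on the minus strand, was at 3.75, 3.18 and 3.44 in OGT_SCKO nerves, against 4.07, 4.56 and 4.30 in Ctrl nerves. The pools did not overlap. Bnip3 fell 1.81-fold (-0.85 on the log2 scale with an SE of 0.19, limma adjusted p = 0.0226), and by 1.1 on the log2 scale with slide as a block (0.0636). Leaving out OGT_SCKO 3, Ctrl 2 or Ctrl 3 gave a limma adjusted p of 0.0823, 0.0698 or 0.0765, and leaving out another array kept it under the threshold.

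Pink1, the kinase that marks damaged mitochondria, has its probe at chr4:137869327-137869386 in mm9 on the minus strand. It was at 3.16, 2.99 and 2.82 in OGT_SCKO nerves, against 3.65, 3.54 and 3.53 in Ctrl nerves. All OGT_SCKO pools were lower, and the fall was 1.5-fold (-0.59 on the log2 scale with an SE of 0.12, limma adjusted p = 0.0175). Pink1 missed the threshold with slide as a block (limma adjusted p = 0.145), nor without OGT_SCKO 3 (0.0731), Ctrl 1 (0.0698), Ctrl 2 (0.0540) or Ctrl 3 (0.0631).

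Bnip3l, or NIX, the relative of Bnip3 that clears mitochondria from maturing red cells, was at 5.06, 4.78 and 4.89 in OGT_SCKO nerves, against 5.28, 5.52 and 5.23 in Ctrl nerves. Its pools did not overlap either, and it missed the threshold (-0.44 on the log2 scale with an SE of 0.13, limma adjusted p = 0.0563). It passed without OGT_SCKO 1 (limma adjusted p = 0.0402).

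The lysosomal members did not pass. Tfe3 and Tfeb, the transcription factors that switch on lysosomal genes, had log2 fold changes of -0.30 and -0.21 (limma adjusted p = 0.143 and 0.424). Tfe3 was at 1.71, 1.35 and 1.43 in OGT_SCKO nerves, against 1.79, 1.91 and 1.71 in Ctrl nerves, and Tfeb at -0.21, -0.84 and -0.85 in OGT_SCKO nerves, against -0.47, -0.40 and -0.39 in Ctrl nerves. OGT_SCKO 1 stood apart from the other OGT_SCKO pools for both genes, and without it both passed as lower (limma adjusted p = 0.0487 for Tfe3 and 0.0340 for Tfeb). These Tfe3 values are from its brighter probe. A second Tfe3 probe had a log2 fold change of 0.01 over all arrays (limma adjusted p over all kept probes of 0.965). Lamp1 was at 5.58, 4.84 and 5.45 in OGT_SCKO nerves, against 5.17, 5.47 and 5.41 in Ctrl nerves, which overlapped (limma adjusted p = 0.860). The log2 fold changes of Lamp1 and Lamp2, the main lysosomal membrane proteins, were -0.06 and -0.05, with 95% intervals of -0.56 to 0.45 and -0.30 to 0.20, and both turned positive with quantile normalization. Vcp, the segregase that pulls ubiquitinated proteins out of membranes, was at 2.83, 2.86 and 2.82 in OGT_SCKO nerves, against 2.69, 2.76 and 2.79 in Ctrl nerves. Its groups did not overlap, with a log2 fold change of 0.09 (SE 0.09, 95% interval -0.14 to 0.32, limma adjusted p = 0.512).

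Several probes per gene gave a second reading for 17 members, while 25 rested on 1 probe. On each of the 6 arrays all 64 kept member probes were well above background. Of these probes 2 were higher and 9 lower at an adjusted p under 0.05 over all 24287 kept probes, 17.2% for both directions together. Over all kept probes 11.6% were higher and another 12% lower, so the member share lay below the background of both directions together. The 3 Bnip3 probes were all lower, at -0.85, -0.75 and -0.53, and each passed (limma adjusted p = 0.0213, 0.00350 and 0.0493). The 4 Bnip3l probes were all below 0, between -0.44 and -0.19, and none passed (the lowest limma adjusted p was 0.0518). Probes of Gabarap, Tfe3 and Wipi1 differed in sign, and none of them passed.

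**Figure D3:**
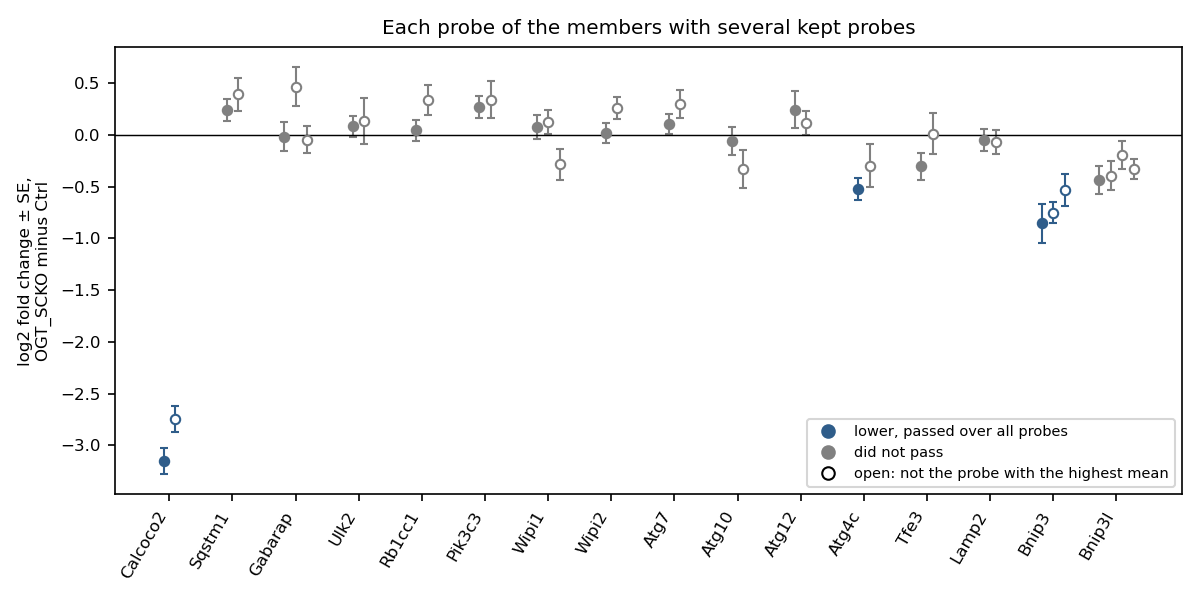
Log2 fold change, OGT_SCKO minus Ctrl, ± SE for each kept probe of 16 members with several, the probe with the highest mean filled and the others open. Both Calcoco2 probes lie under -2.5, and all Bnip3 and Bnip3l probes lie below 0.

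The upstream sequence of 36 of the 44 members was at hand, from RefSeq for build GRCm38.p6, as the 250 bases before the annotated start. Atg12, Becn1, Bnip3l, Calcoco2, Map1lc3a, Pik3c3 and Rb1cc1 were among those without an entry. Motifs were searched as exact letters on both strands. CACGTG, the E-box core to which TFEB and TFE3 are known to bind, stood in 5 of the 36 members (13.9%: Atg3, Atg5, Atg7, Bnip3 and Lamp1), against 6.86% of 27025 genes. The longer CLEAR motif of lysosomal genes, which contains the core, stood in 0 of 36, against 0.27%. The AP-1 motif TGACTCA, or TGAGTCA on the other strand, bound by Jun dimers, stood in 0 of 36, against 5.16%. A match says only that these letters are present. The sequences of 3 members that fell are printed 5′ to 3′ on the gene's strand, with CACGTG in capitals. All 3 genes are on the minus strand, and the windows are chr15:102722179-102722428 for Calcoco1, chr7:138909507-138909756 for Bnip3 and chr4:138326297-138326546 for Pink1.
Calcoco1: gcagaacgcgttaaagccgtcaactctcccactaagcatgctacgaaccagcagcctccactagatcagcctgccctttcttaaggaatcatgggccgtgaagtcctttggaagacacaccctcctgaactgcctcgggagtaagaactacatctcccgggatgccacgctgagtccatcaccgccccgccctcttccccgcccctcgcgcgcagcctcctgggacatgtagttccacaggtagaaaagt
Bnip3: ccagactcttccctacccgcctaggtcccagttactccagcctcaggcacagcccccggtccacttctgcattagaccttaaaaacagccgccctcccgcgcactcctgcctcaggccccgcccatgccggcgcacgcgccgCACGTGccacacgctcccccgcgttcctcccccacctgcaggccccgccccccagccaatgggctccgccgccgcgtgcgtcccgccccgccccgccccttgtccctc
Pink1: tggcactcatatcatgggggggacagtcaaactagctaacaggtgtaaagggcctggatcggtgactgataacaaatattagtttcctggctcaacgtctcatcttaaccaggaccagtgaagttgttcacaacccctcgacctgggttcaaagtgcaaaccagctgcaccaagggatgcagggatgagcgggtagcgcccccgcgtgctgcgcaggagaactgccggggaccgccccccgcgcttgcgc
The Bnip3 window, where the E-box begins 108 bases before the start, is the richest of the 3 in G and C (72.4%, with 24 CG pairs). Calcoco1 and Pink1 hold no E-box and are at 57.6% and 57.2% G and C, with 14 and 13 CG pairs.

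Further genes of the pathway were read from lists chosen beside the members, with 11.2% of all genes tested called higher and 12.1% called lower. Of 17 other selective receptors and adaptors, 2 passed, both lower, which does not exceed the share of all genes. Stbd1, which binds glycogen and brings it to autophagosomes, fell 4.69-fold (log2 mean -2.31 in OGT_SCKO nerves and -0.08 in Ctrl nerves, limma adjusted p = 0.000525, 0.0128 with slide as a block). Fundc1, a mitophagy receptor of the outer membrane, fell 1.80-fold (log2 mean 1.96 in OGT_SCKO nerves and 2.81 in Ctrl nerves, limma adjusted p = 0.00314, 0.0545 with slide as a block). Of 19 other autophagosome genes, Tmem41b, a lipid scramblase, and Wdr45, a WIPI relative, were 1.47-fold and 1.34-fold higher, and Vamp8, a fusion protein of the autophagosome, was 1.55-fold lower. None of the 3 passed with slide as a block (limma adjusted p = 0.0824, 0.190 and 0.0993), and Tmem41b and Wdr45 passed in 2 of the 6 fits that left out an array.

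Among 19 tested genes of nutrient signalling upstream of ULK1, 4 were higher and 2 lower. Tsc1, a brake on the mTORC1 kinase, Flcn, folliculin, and Mtor itself were 1.67-fold, 1.48-fold and 1.54-fold higher, and all 3 missed the threshold with slide as a block (limma adjusted p = 0.0543, 0.0868 and 0.136). Rragd, a Rag GTPase, counts among the 4 but was not well above background in any Ctrl pool. It was kept through the OGT_SCKO pools alone, so its call rests on Ctrl values near the background. With Ctrl values raised to the lowest signal well above background on their array, Rragd was at least 1.20-fold higher. Its call held in 1 of the 6 fits that left out an array and was lost under normexp correction (limma adjusted p = 0.267). Lysosomal hydrolases and cofactors moved in both directions, with 4 of 30 higher and 4 lower. The protease Ctsf and the sialidase Neu1 were 1.70-fold and 1.68-fold lower, and the protease Ctsd and the thioesterase Ppt1 were 1.77-fold and 1.61-fold higher. With slide as a block Ctsf alone of the 30 passed (limma adjusted p = 0.0437). Of 14 proton pump subunits Atp6v1b2 and Atp6v1d were 1.58-fold and 1.28-fold higher. Of 24 proteasome subunits, the other route of protein breakdown, Psmb1 and Psmb2 were 1.29-fold and 1.40-fold higher. These 4 calls were lost with slide as a block (limma adjusted p = 0.112, 0.163, 0.231 and 0.128). Over all genes tested, 11.2% were higher and 12.1% lower.

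Markers of cell types were read beside these changes, with 11.2% of all genes tested called higher and 12.1% called lower. Of 9 tested skeletal muscle markers 6 were lower, and their summed signal, in units of the array's 75th percentile, was 2.45 to 4.20 in OGT_SCKO nerves, against 5.76 to 7.03 in Ctrl nerves. Pvalb, the brightest of the 9, weighs most in this sum (log2 mean 0.76 in OGT_SCKO nerves and 1.80 in Ctrl nerves). With normexp Actn3 and Pvalb alone of the muscle markers passed (limma adjusted p = 0.00356 and 0.0312). Ckm, Myh1, Myh2, Mb and Ttn, which define muscle fibres, were not well above background on every array of at least 1 group and were left out. Of 9 adipocyte markers 6 were lower (3.91 to 5.89 in OGT_SCKO nerves, against 7.27 to 24.8 in Ctrl nerves). Among the 6, Adipoq, Retn, Cidec and Car3 were not well above background on every OGT_SCKO array and were kept through their Ctrl arrays. With normexp Lpl alone of the adipocyte markers passed (limma adjusted p = 0.0172). Among 12 macrophage markers 3 were higher (77.2 to 98.1 in OGT_SCKO nerves, against 79.1 to 90.6 in Ctrl nerves). The 10 myelinating Schwann cell markers were all measured and all below 0, with 2 called lower (350 to 561 in OGT_SCKO nerves, against 549 to 712 in Ctrl nerves). Of 8 fibroblast markers 1 was lower (258 to 460 in OGT_SCKO nerves, against 385 to 622 in Ctrl nerves), and of 8 endothelial markers 1 was lower (14.9 to 18.9 in OGT_SCKO nerves, against 23.4 to 26.6 in Ctrl nerves). With slide as a block the calls fell to 2 muscle, 1 adipocyte, 1 macrophage and 1 fibroblast marker, and those of myelinating Schwann cell and endothelial markers were lost. Summed signals of the groups overlapped for macrophage, myelinating Schwann cell and fibroblast markers. The part of these levels in the changes of Calcoco2, Calcoco1, Bnip3, Pink1, Atg4c, Map1lc3a and Atg2b was not tested.

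The 7 members that passed differed in how firmly they did so. Over 18 other settings, 12 of processing or design and 6 that left out an array, Calcoco2 passed in 18 and Calcoco1 in 15. These settings overlap, so the counts are not of separate checks. For Calcoco1, read by 1 probe, the settings of filter and probe choice kept the fold change at -1.03. Slide as a fixed block and the shared slide alone give the same fold change, -0.90 for Calcoco1. With slide as a fixed block 2 members passed (Calcoco2 lower and Atg2b higher), against 6.43% of all genes tested, and on the shared slide alone 1 (Calcoco2), against 2.13%. Over the 18 settings Bnip3 passed in 11, Pink1, Atg4c and Atg2b in 10 each, and Map1lc3a in 6. No setting turned the sign of any of the 7.

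**Figure D4:**
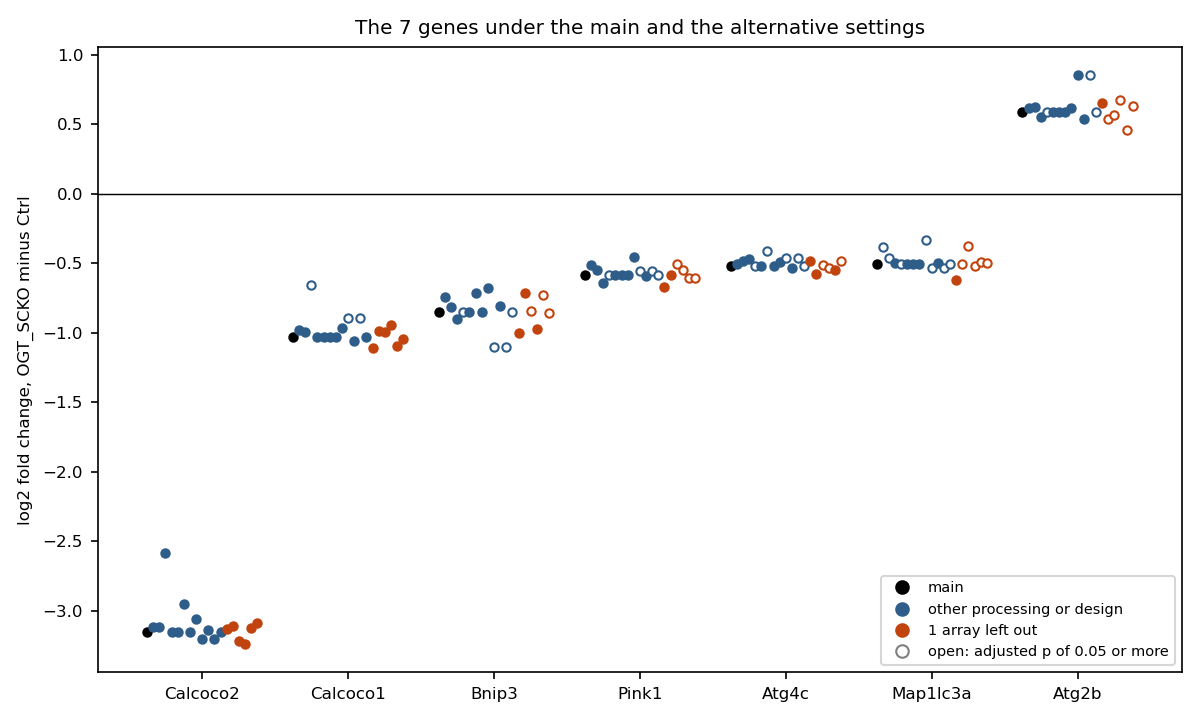
Log2 fold change, OGT_SCKO minus Ctrl, of the 7 members that passed, under the main setting (black), 12 other settings of processing or design (blue) and 6 fits that left out 1 array (orange), open where the limma adjusted p was 0.05 or more. Calcoco2 keeps to between -3.24 and -2.59 with filled points throughout, and Map1lc3a is open in most settings.

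The genes around the pair of CALCOCO loci were read to see whether they moved too, a window of 250 kb on each side of the probe that was chosen after the values were seen. Around Calcoco2, 12 other genes were tested, and 3 passed, all lower, against 12.1% of all genes called lower and 23.3% called either way. The nearest to it in size was Ttll6, a tubulin glutamylase, at -2.50, -2.77 and -2.49 in OGT_SCKO nerves, against -0.44, -0.41 and -0.85 in Ctrl nerves. Its groups did not overlap, and it fell 4.05-fold (-2.02 on the log2 scale with an SE of 0.16, limma adjusted p = 0.000524, 0.00850 with slide as a block). A second Ttll6 probe was at -1.84. In RefSeq's GRCm38.p6 annotation the 2 gene models share 104 bases at chr11:96124457-96124560, Calcoco2 being on the minus strand by its probes and Ttll6 on the plus strand. Snf8 and AK050857, on the other side, fell by 0.53 and 0.54 on the log2 scale, and both missed the threshold with slide as a block (limma adjusted p = 0.147 and 0.233). With normexp AK050857 was 1.15-fold lower and did not pass (limma adjusted p = 0.705). Around Calcoco1, 8 others were tested, and Tarbp2, the 1 that passed, was higher.

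**Figure D5:**
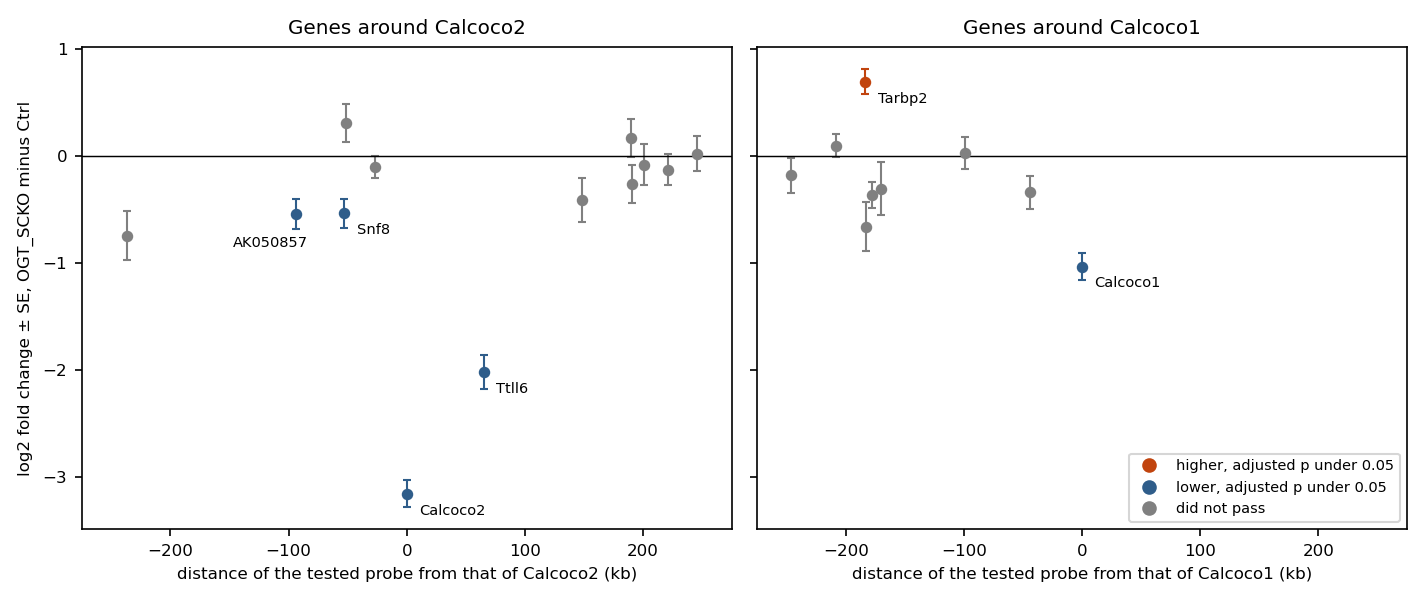
Log2 fold change, OGT_SCKO minus Ctrl, ± SE of the tested genes within 250 kb of the Calcoco2 probe (left, 12 others) and of the Calcoco1 probe (right, 8 others), by distance in kb. Ttll6 at -2.02 is the deepest point beside Calcoco2, while Calcoco1 is the 1 blue point of its window.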

How the data were processed

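Per the file headers, the deposited intensity of each spot is the processed red signal of Agilent Feature Extraction 11.5.1.1, after removal of background and of trends across the array. A table of log2 values, also deposited by the authors, shares 1 distribution of values over all arrays and served as an alternative. Here the log2 processed signal was taken minus each array's 75th percentile, spots with outlier flags were left out, and spots of a probe were averaged. Probes well above background on every array of at least 1 group were kept (24287 of 39429), and a gene was read from its kept probe with the highest mean. Groups were compared with limma 3.58.1 in R 4.3.3 (lmFit, eBayes), with Benjamini-Hochberg adjustment over 19058 genes, and the step was tested on simulated data. Names came from the files, updated through RefSeq accessions (27655 probes matched), and probe positions are on mm9. Alternatives changed the normalization, background correction, filter, choice of probe, slide term, replicate block and threshold, or left out an array. With 3 arrays a group, their number sets the precision.

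The members and lists were chosen with earlier results of these data known. Values in every pool were given for members that passed and for the member of each role with the largest change. They were also given for Nbr1, Sqstm1, Optn, Map1lc3b, Bnip3l and Tfeb, which meet neither rule. Of each list, up to 4 genes with the smallest adjusted p among those that passed were named. Genes next to Calcoco2 and Calcoco1, the muscle markers left out by the filter, and probes that disagreed were named beside these. Adipocyte markers called lower but not well above background on every OGT_SCKO array were named too, as was the muscle marker Pvalb. The values of 1 member are not reported here on their own.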

Additional observations from a re-analysis of the deposited data

How the results depend on the processing

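Of 756 fold changes (42 members under 18 alternative settings), 661 kept their direction and side of the threshold, 46 no longer passed, 5 newly passed and 44 changed sign. None of the sign changes was in a member that passed. The count of members higher, 1 in the analysis as reported, was 0 with no filter, 2 with the mean of a gene's probes, 0 on the shared slide alone, 0 at an adjusted p under 0.01 and 0 to 1 when an array was left out. That of members lower, 6 as reported, was 2 with no filter, 1 with slide as a fixed block, 1 on the shared slide alone, 2 at 0.01 and 2 to 9 when an array was left out. Over all genes, 2126 higher and 2312 lower became 1322 and 1307 with no filter, 682 and 543 with slide as a fixed block, 283 and 123 on the shared slide alone, and 908 and 830 at 0.01. Leaving out an array gave 1023 to 2248 higher and 951 to 3382 lower. With normexp 1224 were lower. The share of higher among all calls was 69.7% on the shared slide alone, against 47.9% as reported. A single Ctrl array stands on the shared slide, so lost power and a difference between slides cannot be told apart in these fits. The members' median fold change (log2), -0.02 as reported, was 0.076 with quantile normalization, 0.067 with the deposited values, -0.079 with slide as a fixed block and on the shared slide alone, and -0.056 to 0.044 when an array was left out. The median over all genes moved by more than 0.1 on the log2 scale with no filter only, to -0.24 over another set of 30325 genes.

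Same-numbered pools did not deviate together (correlations of -0.27, -0.53 and 0.06). With 1 correlation for each replicate number, this cannot exclude that such pools were paired. With the replicate block, members higher and lower were 0 and 2, and all genes higher and lower 793 and 682.

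Sign changes were in 13 members that did not pass. With quantile normalization Tax1bp1 was at 0.071, Gabarap at 0.25, Gabarapl1 at 0.19, Lamp1 at 0.23 and Lamp2 at 0.029. With the deposited values Tax1bp1 was at 0.064, Gabarap at 0.23, Gabarapl1 at 0.17, Gabarapl2 at 0.022, Lamp1 at 0.21 and Lamp2 at 0.026. With median scaling Tax1bp1 was at 0.022, Gabarap at 0.021 and Gabarapl1 at 0.020. With the mean of a gene's probes Gabarap was at 0.14 and Wipi1 at -0.028. With slide as a fixed block or on the shared slide alone Rb1cc1 was at -0.019, Atg9a at -0.42, Wipi2 at -0.022, Atg10 at 0.016 and Atg4d at -0.14. Leaving out an array gave -0.055 to 0.054 for Tax1bp1, -0.14 to 0.075 for Gabarap, -0.13 to 0.20 for Gabarapl1, -0.091 to 0.018 for Ambra1, -0.14 to 0.22 for Atg9a, -0.0027 to 0.058 for Wipi2, -0.15 to 0.049 for Atg10, -0.056 to 0.16 for Atg4d and -0.20 to 0.17 for Lamp1. The causes were not tested.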
